A study of Monopterus albus with 3 samples.

Results

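Single-exon ORF loci are places in the gonad transcript models of *Monopterus albus*, the swamp eel, where a long open reading frame (ORF) lay within 1 exon. Every gene identifier of the models counted as 1 locus, and its transcript with the longest coding sequence (CDS) stood for it. A locus was included when that transcript had exactly 1 exon row, its CDS was at least 600 bp, and it did not lie inside the span of a locus with 2 or more exon rows on the same scaffold, on either strand. This gave 1315 loci of 63334, or 2.08% of all loci and 11% of the 11941 loci whose CDS reached 600 bp. A further 186 single-exon loci of that length lay inside a spliced locus and were left out. The loci set beside them were the 10440 spliced loci, with 2 or more exon rows and a CDS of at least 600 bp. The rule fixed the number of exon rows, the minimum length and the position outside spliced loci, and none of these is a result.

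The models came from poly(A) RNA of 3 gonads of this fish, which changes sex from female to male during its life. There was 1 library each from the ovary of a female, the ovotestis of a hermaphrodite (also titled intersex) and the testis of a male, with no strain, age or treatment stated and no replicates. The authors' annotation holds 75480 transcripts on 8752 scaffolds, with 1 FPKM and 1 coverage value per transcript for the whole series. The values are not given per gonad, so the gonads could not be compared, their labels could not be checked against marker genes, and no error between samples could be measured. Intervals below are exact binomial (Clopper-Pearson) 95% intervals. They cover counting error only, and neighboring loci are not independent. Loci are not replicates either, so no test was made between the sets of loci.

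Most protein-coding genes of vertebrates are split by introns, but some well known families have none in their coding sequence. These include the replication-dependent histones and many G protein-coupled receptors. An ORF without introns can also be a retrocopy, made when an mRNA is reverse transcribed and inserted into the genome, or can belong to a transposon. A gene may carry introns in its untranslated regions (UTRs) while its coding sequence lies in 1 exon. An assembler can also break a transcript into several pieces where reads are few, and a piece may then show a single exon. No name comes with the gene identifiers (0 were found in the RefSeq gene list for the swamp eel), so the families to which the loci belong are not known here.

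By the exon numbers of the annotation, the word intronless holds for the coding part of these loci and may not hold for all of their transcripts. The authors trimmed each transcript to its ORF, and the exon numbers were read here as kept from before the trimming. The sources do not state this. In all 22998 transcripts with 2 or more exon rows, these numbers ran by 1 along the scaffold. They do not always begin at 1, and a first exon row numbered above 1 was taken as an exon trimmed away at lower coordinates. All values for trimmed exons below rest on this reading. On it, 161 of the 1315 loci (12.2%, interval 10.5% to 14.1%) had such an exon. Exons at higher coordinates leave no trace in the numbers, so 161 is then a lower limit. Counted separately, 11 loci (0.837%) had another transcript with 2 or more exon rows, and these can also be among the 161. The longest of these, CUFF42.602 on scaffold 18 (3358353 to 3359906, plus strand), was looked up after its values were seen. It had an ORF of 1554 bp, a coverage of 46.6 and 1 trimmed upstream exon.

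Several of these loci share 1 place in the genome. The same coordinates and strand were given to 46 loci, in 23 pairs of identifiers, so the 1315 loci cover 1292 distinct places. In 14 of the 23 pairs the exon numbers differed between the partners. The coverage of the partners differed by a ratio of 1.07 to 8.50, with a median of 2.11. For example, the ORF on scaffold 674 from 5210 to 5920 belonged to CUFF150.44, with a coverage of 4.35 and 1 exon upstream, and to CUFF150.45, with a coverage of 1.04 and none. Counts below are over the 1315 loci unless stated otherwise.

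The single-exon ORFs were mostly short. Their median CDS was 888 bp (quartiles 708 and 1200 bp), against 1419 bp (957 and 2229 bp) for spliced loci. The mean was 1071 ± 622 bp (SD over 1315 loci), against 1832 ± 1345 bp (SD over 10440 loci). By length, 672 were of 600 to 900 bp, 312 of 900 to 1200 bp, 220 of 1200 to 1800 bp, 92 of 1800 to 3000 bp and 19 of 3000 bp or more, where each class stops short of its upper limit. The CDS was a whole multiple of 3 in 1314 of the 1315. The exception, CUFF26.234 on scaffold 141 (1013760 to 1014589, plus strand), had 830 bp and was looked up for this property. The ORFs were on the plus strand at 669 loci (50.9%) and on the minus strand at 646 (49.1%), the same shares as in spliced loci.

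A single ORF was far longer than the rest. CUFF53.116 on scaffold 207 covered 229082 to 240964 on the plus strand, which is 11883 bp of reading frame without an interruption in the models. Its coverage was 14.0, and its nearest spliced locus lay 28499 bp away on the other strand. Next in length was CUFF78.101 on scaffold 281 (455925 to 460616, plus strand), with 4692 bp, a coverage of 24.6 and 1 trimmed upstream exon. The other 8 of the 10 longest had 3882 to 4320 bp. Their coverage spread from 5.57 at CUFF22.24 (scaffold 130, 596056 to 600315, minus strand) to 324 at CUFF21.314 (scaffold 13, 3298513 to 3302775, plus strand). At CUFF21.314 the value exceeded that of 89.3% of 338 spliced loci with a CDS within 10% of its own. Of the 8 on the plus strand among these 10, 3 had trimmed upstream exons.

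On both sides of the minimum length, coverage varied widely. At exactly 600 bp there were 11 loci, with coverages from 2.18 to 293 and a median of 5.21. At 597 bp there were also 11 single-exon loci outside spliced loci, with coverages from 2.61 to 195 and a median of 19.9. Sorted as text, the first 3 identifiers at 600 bp were CUFF122.84 on scaffold 454 (21995 to 22594), CUFF130.14 on scaffold 490 (35350 to 35949) and CUFF133.284 on scaffold 52 (538642 to 539241). Their coverages of 19.5, 52.2 and 293 all lay above the median of 5.21 at this length. The first 3 at 597 bp were CUFF113.290 on scaffold 40 (3691320 to 3691916), CUFF114.210 on scaffold 403 (272038 to 272634) and CUFF122.66 on scaffold 453 (90826 to 91422). Their coverages were 2.61, 76.7 and 9.11.

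The ORF lengths showed no single recurring size. Over the 1315 loci there were 416 distinct lengths, and 98 of them were shared by 5 or more loci, together 728 loci. The commonest was 657 bp, with 17 loci, and the longest shared by 5 or more was 1491 bp. Both counts include a pair of identifiers at the same coordinates. These pairs were CUFF11.41 with CUFF11.42 at 657 bp, and CUFF30.183 with CUFF30.184 at 1491 bp. Whether loci of equal length have equal sequence was not tested, since no genome was used here.

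By the exon numbers, exons upstream of the ORF were found at about 1 in 5 of the loci where they could be seen. Exon numbers run along the scaffold, so that on the plus strand the trimmed exons lie on the 5′ side of the ORF, and on the minus strand on its 3′ side. On the plus strand, 136 of 669 single-exon ORF loci (20.3%, interval 17.3% to 23.6%) had a trimmed 5′ exon, against 2451 of 5310 spliced loci (46.2%, 44.8% to 47.5%). On the minus strand, 25 of 646 (3.87%, 2.52% to 5.66%) had a trimmed 3′ exon, against 670 of 5130 spliced loci (13.1%, 12.1% to 14.0%). Both sets thus had more 5′ than 3′ exons outside the ORF, and the single-exon loci had fewer on either side. Of the 136 loci, 105 had 1 such exon, 20 had 2 and 11 had 3 or more, with 7 as the largest number. The share was 14.8% for loci with 1 transcript.

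**Figure D1:**
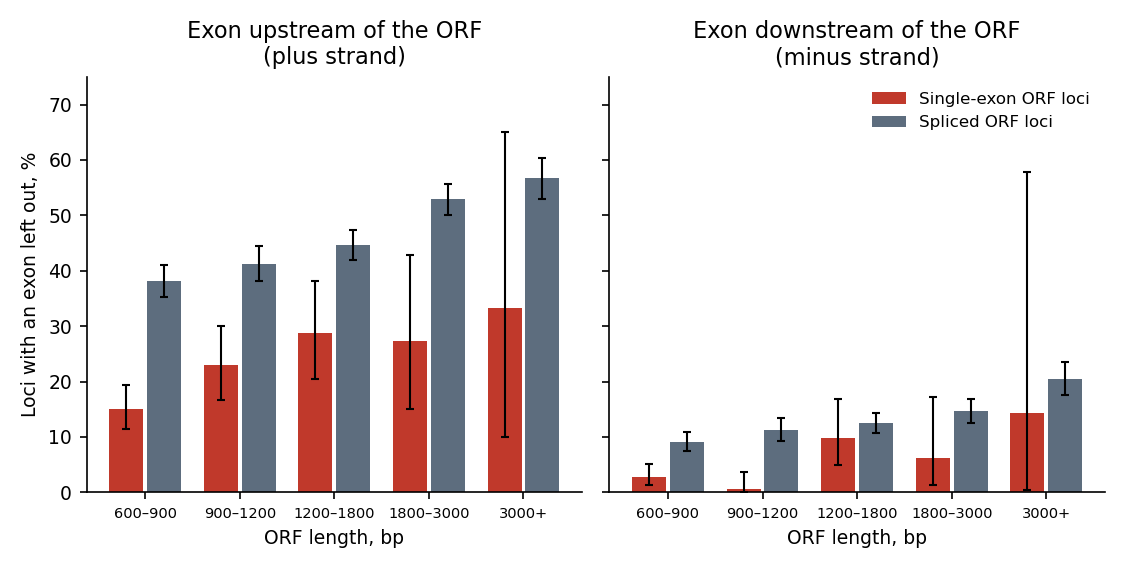
Share of loci (%) with an exon trimmed away upstream of the ORF on the plus strand (left panel) and downstream of it on the minus strand (right panel), by ORF length in bp, for single-exon ORF loci (red) and spliced loci (grey). Bars are shares and error bars are exact 95% intervals for counting error. Upstream exons were seen at 15.0% of single-exon ORFs of 600 to 900 bp and at 28.7% of those of 1200 to 1800 bp, below the spliced loci in every length class.

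The share with a 5′ exon was higher among longer ORFs. It was 15.0% of 339 plus-strand loci of 600 to 900 bp, 22.9% of 166 loci of 900 to 1200 bp, 28.7% of 108 loci of 1200 to 1800 bp, 27.3% of 44 loci of 1800 to 3000 bp and 33.3% of 12 loci of 3000 bp or more. The interval of the last class, 9.92% to 65.1%, spans all the others. Among spliced loci the share ran from 38.1% in the shortest class to 56.7% in the longest. Single-exon loci below the minimum length had fewer 5′ exons, with 6.18% of 1148 at 300 to 450 bp and 8.96% of 402 at 450 to 600 bp. The intervals of the 600 to 900 bp class (11.4% to 19.3%) and the 1200 to 1800 bp class (20.4% to 38.2%) did not overlap, whereas those of the classes from 900 bp upward did.

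Loci with a 5′ exon also had a higher median coverage. Their median coverage was 18.9 (quartiles 6.40 and 67.5, 136 loci), against 9.88 (4.43 and 36.0, 533 loci) for plus-strand loci without one. Within 600 to 900 bp the medians were 10.4 with and 7.66 without a 5′ exon, and within 900 to 1200 bp they were 21.4 and 10.8. Within 1200 to 1800 bp they were 20.7 and 15.8. Within 1800 to 3000 bp they were 65.5 (12 loci) and 19.3 (32 loci), and at 3000 bp or more 73.0 (4 loci) and 17.2 (8 loci). The quartile ranges overlapped in each of these classes. Plus-strand spliced loci went the same way, with medians of 115 with (2451 loci) and 95.3 without (2859 loci) a 5′ exon. The part of coverage in the shares with a trimmed exon was not tested.

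Read coverage of single-exon ORFs was low. Coverage is the mean number of reads over each base of a transcript as Cufflinks estimated it, and serves here as the measure of both level and depth. The median was 11.7 (quartiles 4.66 and 41.8, range 1.04 to 10177) over 1315 loci, against 96.5 (19.6 and 258) for spliced loci. The spliced median was 8.27 times the single-exon median. Coverage was under 5 at 352 loci (26.8%), against 750 spliced loci (7.18%), and was at least 100 at 203 loci (15.4%), against 5128 spliced loci (49.1%). Here and below, long-ORF loci are the single-exon and spliced sets together, without the 186 single-exon loci inside a spliced locus. Read the other way, single-exon loci made up 31.9% of the 1102 long-ORF loci with coverage under 5, 19.5% of those from 5 to 20, 10.1% of those from 20 to 100 and 3.81% of those at 100 or more.

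**Figure D2:**
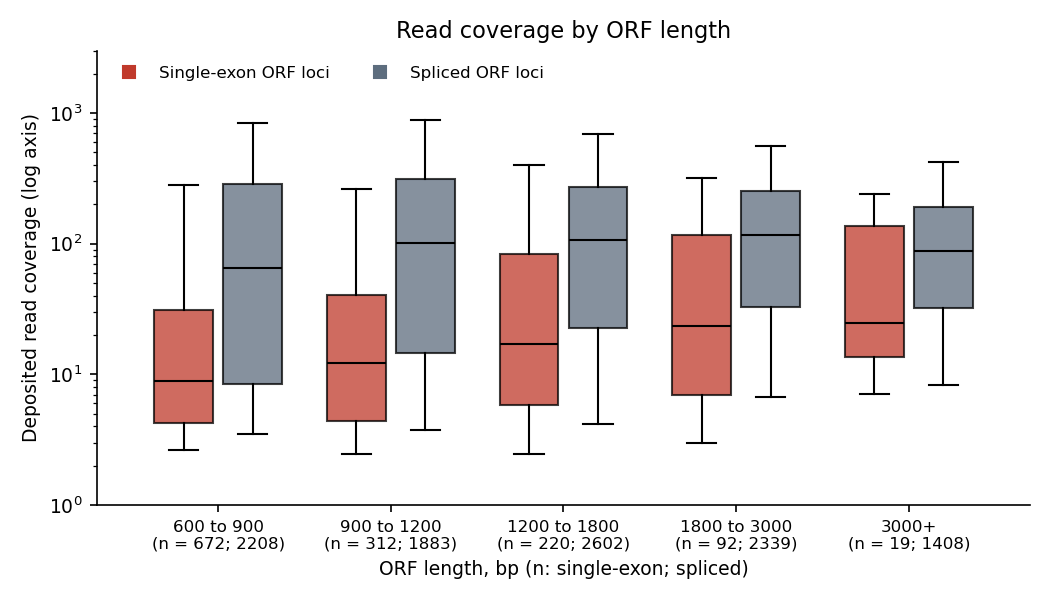
Deposited read coverage (log axis) by ORF length in bp, for single-exon ORF loci (red) and spliced loci (grey). Boxes span the quartiles with the median as a line, and whiskers reach the 5th and 95th percentiles over loci. The single-exon median lies below the spliced median in all 5 classes, from 8.93 against 65.6 in the shortest to 24.6 against 87.5 in the longest.

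This difference was present at equal ORF length. The median coverage of single-exon and spliced loci was 8.93 and 65.6 at 600 to 900 bp, 12.3 and 101 at 900 to 1200 bp, and 17.2 and 106 at 1200 to 1800 bp. It was 23.5 and 116 at 1800 to 3000 bp, and 24.6 and 87.5 at 3000 bp or more. On the log2(coverage + 2) scale the differences of the medians, single-exon minus spliced, were -2.63, -2.85, -2.50, -2.21 and -1.75 from the shortest class to the longest. Weighted by the number of single-exon loci, the mean of these was -2.62. The quartile ranges of both sets overlapped in every class. The single-exon median was higher in each longer class, whereas the spliced medians of the 4 classes from 900 bp upward lay between 87.5 and 116.

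Each single-exon locus was also ranked among the spliced loci whose CDS was within 10% of its own. This could be done for 1314 loci, with 251 or more spliced loci each, and not for CUFF53.116, for which there were 13. The median rank was 24.1% (quartiles 8.49% and 41.8%). The lowest 10% of spliced loci held 356 of the 1314 (27.1%, interval 24.7% to 29.6%), while 220 (16.7%) ranked in the upper 50% and 29 (2.21%, 1.48% to 3.15%) in the highest 10%. Coverage therefore spread over the full range of spliced loci but was concentrated at its low end.

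**Figure D3:**
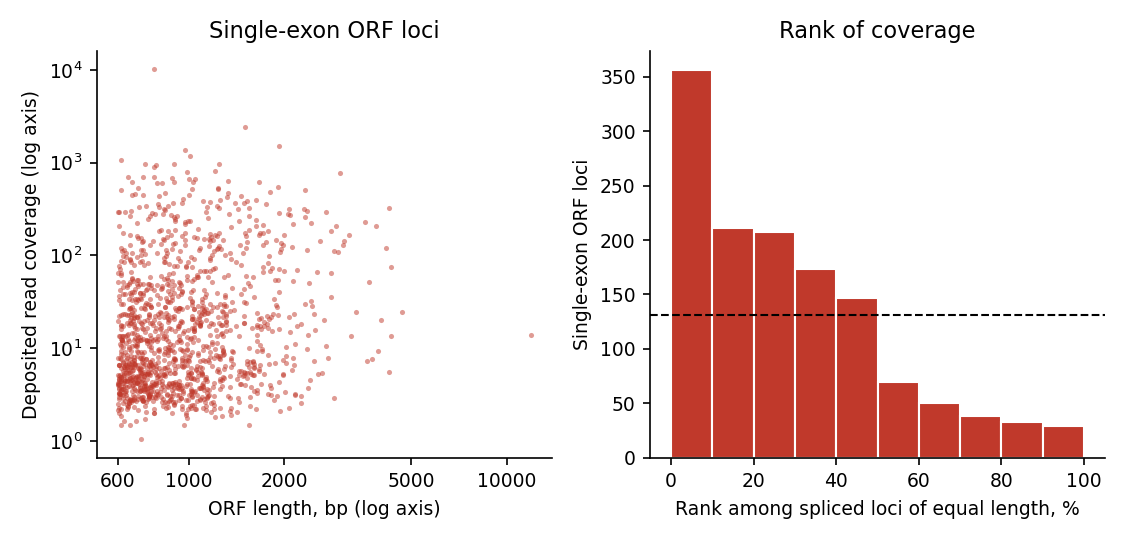
Left panel, deposited read coverage against ORF length in bp for each of the 1315 single-exon ORF loci (both axes log). Right panel, number of single-exon ORF loci by their coverage rank (%) among spliced loci with an ORF length within 10%, in steps of 10 percentage points over 1314 loci, with a dashed line at 131, which is 10% of these loci. The first step holds 356 loci and the last holds 29, and 1 ORF of 11883 bp stands apart on the left.

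The highest coverage was found at a short ORF. CUFF166.185 on scaffold 93 (1133945 to 1134721, minus strand) had an ORF of 777 bp and a coverage of 10177, above all 1110 spliced loci of equal length. It lay 79732 bp from the nearest spliced locus. The next was CUFF22.233 on scaffold 131 (1431145 to 1432653, minus strand), with 1509 bp and a coverage of 2445. CUFF12.162 on scaffold 1125 (2644 to 4566, minus strand) followed, with 1923 bp and a coverage of 1510, on a scaffold with no spliced locus. CUFF63.126 on scaffold 237 (799987 to 800961, plus strand) and CUFF89.470 on scaffold 31 (6738033 to 6739046, plus strand) had coverages of 1380 and 1174. By their exon numbers, each of these last 2 had 1 trimmed upstream exon.

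The lowest coverage was between 1 and 2 reads per base. CUFF150.45, named above as a partner of CUFF150.44, had 1.04. CUFF152.53 on scaffold 70 (536220 to 536831, minus strand) had 1.47, CUFF96.402 on scaffold 335 (397183 to 398733, minus strand) had 1.48, CUFF104.102 on scaffold 365 (225883 to 226851, plus strand) had 1.49, and CUFF122.159 on scaffold 455 (259276 to 259932, plus strand) had 1.5. By its exon numbers, CUFF122.159 had 4 trimmed upstream exons. These values are those of the chosen transcript. CUFF152.53 and CUFF122.159 had 3 transcripts each, and the coverage of the others is not included. At this depth the chosen models themselves rest on few reads.

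Few single-exon ORF loci had alternative transcripts. A single transcript was given for 1177 loci (89.5%, interval 87.7% to 91.1%), against 46.3% of spliced loci, and 106 loci had 2 transcripts, 31 had 3 and 1 had 4. The rule bears on this comparison. The chosen transcript of a single-exon locus has no coding intron, whereas that of every spliced locus has. How much of the difference follows from the rule was not tested. The median coverage was 30.1 over the 138 loci with 2 or more transcripts, and 10.4 over the 1177 with 1. When the coverage of all transcripts of a locus was summed, the difference from spliced loci widened to -3.22 on the log2(coverage + 2) scale. With loci of 1 transcript only it was -2.49.

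By the median gap, single-exon ORFs lay about as close to other loci as spliced loci did, but farther from spliced loci. The gap to the nearest locus of any kind had a median of 1578 bp (quartiles 400 and 4182 bp) over the 1242 loci that shared their scaffold with another locus, and of 1713 bp when each place was counted once. For spliced loci outside other spliced loci it was 1604 bp (276 and 3754 bp), over all identifiers. All gaps and overlaps here and below were measured between the coding spans of the chosen transcripts. UTRs and trimmed exons lie outside these spans, so whole transcripts may lie closer than the gaps. Overlapping loci were counted as having no gap, and the span of a spliced locus includes the introns between its coding segments. Another locus overlapped 154 of the 1315 single-exon loci (11.7%) and 2133 of these 10396 spliced loci, which lowers both medians. The median gap to the nearest spliced locus was 10153 bp (3686 and 26218 bp, 1187 loci), against 5684 bp (2272 and 14424 bp) for spliced loci. When only loci whose CDS reached 300 bp were counted as neighbors, the medians were 5305 and 4930 bp. Loci inside a spliced locus were left out of both sets but still counted as neighbors. Of the 1315 loci, 47 (3.57%) overlapped a spliced locus without lying inside it, 37 of them on its strand.

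Close to a spliced locus, single-exon ORFs were mostly on its strand. Among those with a gap of at most 1 kb, 66 of 79 (83.5%, interval 73.5% to 90.9%) had the strand of the spliced locus, against 759 of 1025 spliced loci (74.0%, 71.2% to 76.7%). At 1 to 5 kb the shares were 56.9% of 260 and 59.5% of 3600, and at 5 to 20 kb they were 51.9% of 405 and 59.3% of 3686. Beyond 20 kb they were 50.8% of 396 (45.7% to 55.8%) and 55.4% of 1815 (53.1% to 57.7%). Up to 5 kb in all, 214 of 339 single-exon loci (63.1%, 57.7% to 68.3%) and 62.7% of 4625 spliced loci had the strand of their neighbor. Within 1 kb on the same strand, 36 of the 66 lay on the 3′ side of the spliced locus and 30 on its 5′ side.

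Such close neighbors on 1 strand also had like coverage. Of the 66 loci within 1 kb on the same strand, 47 (71.2%, interval 58.7% to 81.7%) were within 2-fold of their neighbor, and the median log2 ratio of single-exon to spliced coverage was 0.01 (quartiles -0.66 and 0.72). Both medians were low, 7.84 for the single-exon loci and 8.39 for their neighbors. At 1 to 5 kb on the same strand 33.8% of 148 were within 2-fold, at 5 to 20 kb 22.9% of 210, and beyond 20 kb 19.9% of 201. The median log2 ratio at these gaps was -0.93, -2.54 and -1.81. On the other strand within 1 kb there were only 13 loci, of which 30.8% (9.09% to 61.4%) were within 2-fold. Median coverage there was 78.3 for the single-exon loci and 216 for their neighbors. Spliced loci also had like coverage at short gaps on the same strand. Up to 1 kb, 467 of 759 spliced loci (61.5%, 58.0% to 65.0%) were within 2-fold of their neighbor. Their share was 37.5%, 28.8% and 26.3% at the larger gaps.

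**Figure D4:**
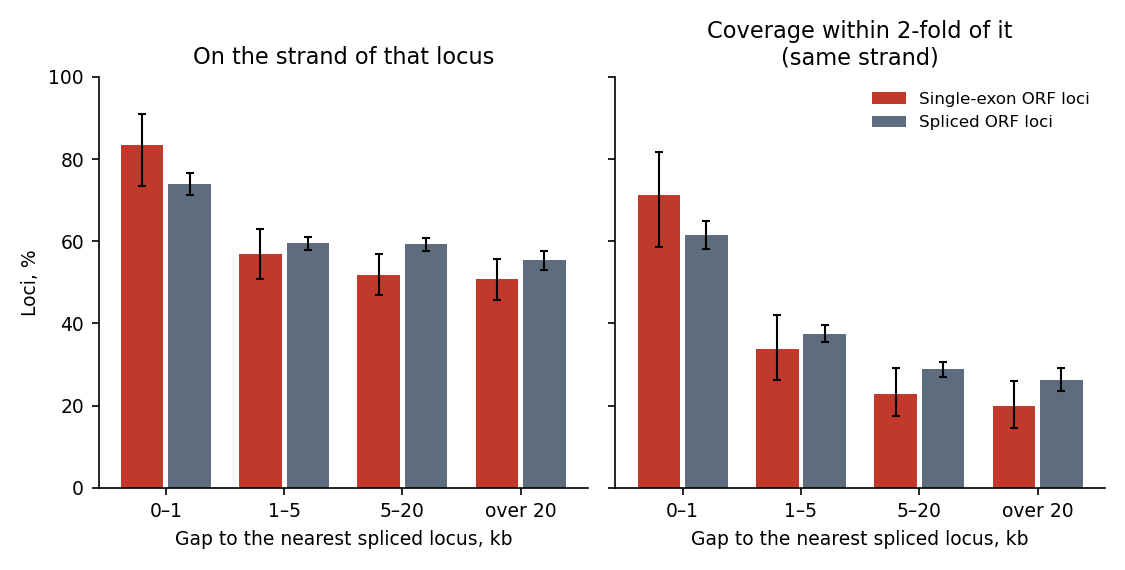
Left panel, share of loci (%) on the strand of the nearest spliced locus, and right panel, share of same-strand loci with a coverage within 2-fold of that locus, by the gap in kb, for single-exon ORF loci (red) and spliced loci outside other spliced loci (grey). Error bars are exact 95% intervals for counting error. At up to 1 kb 83.5% of single-exon loci share the strand and 71.2% of these are within 2-fold, against 50.8% and 19.9% beyond 20 kb. For spliced loci the values are 74.0% and 61.5% at up to 1 kb, against 55.4% and 26.3% beyond 20 kb.

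Across the 66 close loci on the same strand, coverage of the locus and of its neighbor ranked together with a Spearman rho of 0.68, and the rho was 0.28 at 1 to 5 kb, -0.02 at 5 to 20 kb and 0.08 beyond. These are descriptions across loci that share libraries and scaffolds. The rho over the 13 close loci on the other strand was 0.61. For spliced loci on the same strand as their neighbor there was a rho of 0.83 over 759 loci within 1 kb and of 0.37, 0.14 and 0.11 at the larger gaps, and 0.26 over 266 loci within 1 kb on the other strand. Among the 10 longest, CUFF97.670 on scaffold 34 (5280609 to 5284928, plus strand) had 4320 bp and a coverage of 13.4. It began 181 bp past the end of the coding span of the spliced CUFF97.669 (5278297 to 5280427), on the same strand. That locus had 1827 bp and a coverage of 9.31. CUFF22.24, at a coverage of 5.57, lay 378 bp from the spliced CUFF22.23 (570788 to 595677), with a coverage of 9.09 on the same strand. Whether such pairs are parts of 1 transcript or separate genes was not tested.

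Some single-exon ORFs lay in long stretches without a spliced locus, as did some spliced loci without another. The largest gap to a spliced locus was 282701 bp for single-exon loci and 447040 bp for spliced loci outside other spliced loci. The farthest from any spliced locus, with one on both sides, was CUFF154.433 on scaffold 74 (970996 to 972762, plus strand), with 1767 bp, a coverage of 22.4 and a gap of 264207 bp. CUFF44.454 on scaffold 186 (680214 to 681242, plus strand) was 252860 bp away, with 1029 bp and a coverage of 2.47. CUFF112.650 and CUFF112.649 on scaffold 4 (8186201 to 8186830 and 8184870 to 8185592, both minus strand) were 243006 and 241675 bp away, with coverages of 2.72 and 4.97, and 608 bp from each other. CUFF115.672 on scaffold 41 (5079842 to 5080456, plus strand) was 223922 bp away, with a coverage of 3.65. The other 3 had a locus of some kind at 1864 to 4109 bp.

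Single-exon ORFs made up a larger share of the long ORFs on scaffolds with few loci. On scaffolds with only 1 locus, 73 of 120 long-ORF loci (60.8%, interval 51.5% to 69.6%) were single-exon. The share was 32.5% (25.5% to 40.2%) on scaffolds with 2 to 9 loci, 12.6% (10.9% to 14.5%) with 10 to 49, and 10.1% (9.48% to 10.7%) with 50 or more. Scaffolds without a spliced locus held 128 single-exon loci (9.73%, 8.19% to 11.5%), while 99 spliced loci (0.948%, 0.771% to 1.15%) were on a scaffold without another spliced locus. Most single-exon loci, 1018 of 1315 (77.4%), were nevertheless on scaffolds with 50 or more loci. Of the single-exon loci, 19 (1.44%) had their lower coordinate in the first 10 bases of a scaffold, on either strand, against 4 spliced loci (0.0383%). Ends at the other side could not be counted, since scaffold lengths were not used here.

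**Figure D5:**
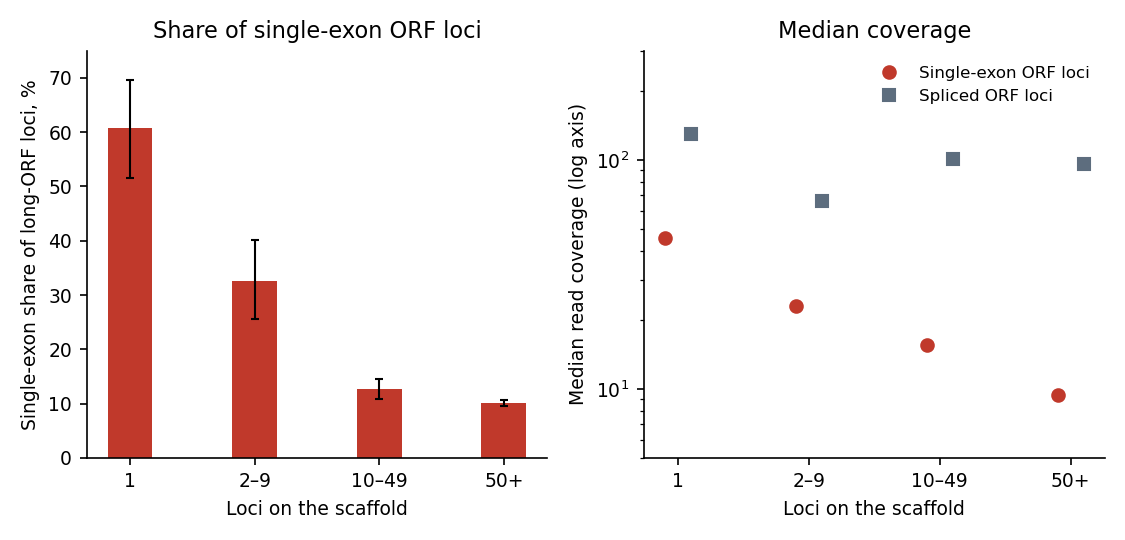
Left panel, share (%) of single-exon loci among loci whose ORF reached 600 bp, by the number of loci on the scaffold, with exact 95% intervals for counting error. Single-exon loci inside a spliced locus are left out of these shares. Right panel, median read coverage (log axis) of single-exon ORF loci (red circles) and spliced loci (grey squares) in the same classes. The share is 60.8% on scaffolds with 1 locus and 10.1% on those with 50 or more, and the single-exon median coverage is 45.5 and 9.43 there.

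Coverage of single-exon ORFs differed between these scaffolds. Its median was 45.5 on scaffolds with 1 locus, 23.1 with 2 to 9, 15.5 with 10 to 49 and 9.43 with 50 or more, against 130, 66.1, 101 and 96.4 for spliced loci. It was 24.9 (quartiles 9.29 and 108) on the 128 loci without a spliced locus on their scaffold and 10.2 (4.46 and 38.2) on the other 1187. The 3 longest that were alone on a scaffold all had their lower coordinate near its first base, which on the minus strand is the 3′ end of the ORF. CUFF47.94 on scaffold 1932 (16 to 2607, plus strand) had 2592 bp and a coverage of 145. CUFF57.11 on scaffold 2148 (25 to 2349, minus strand) had 2325 bp and 260, and CUFF48.13 on scaffold 1955 (72 to 2156, minus strand) had 2085 bp and 15.1.

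The loci were spread over 498 scaffolds, of which 260 had just 1. Scaffolds 3, 2 and 18 held the most, with 28, 23 and 21. On the 65 scaffolds with at least 50 long-ORF loci the median share of single-exon loci was 8.88% (quartiles 5.88% and 11%). The highest share, 15.9%, was found on scaffold 51, with 14 single-exon beside 74 spliced loci (interval 8.98% to 25.2%), and also on scaffolds 25 and 32, with 10 beside 53 on each. The lowest was on scaffold 209, with 0 of 59 and an upper limit of 6.06%. Both extremes were picked from 65 scaffolds.

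A minority of the single-exon ORFs lay in small groups. Groups of 2 or more, each at most 10 kb from the next, numbered 92 and held 198 loci (15.1%, interval 13.2% to 17.1%). Of these, 79 had 2 loci, 12 had 3 and 1 had 4. In 79 of the 92 (85.9%, 77.0% to 92.3%) all loci were on 1 strand. However, 19 groups were only a pair of identifiers with the same coordinates, and 62 groups were left after overlapping loci were joined, 49 of them (79.0%, 66.8% to 88.3%) on 1 strand. Only 1 group held 2 loci of equal CDS at different places. The loci in groups had a median coverage of 8.70 and the other 1117 one of 12.2. Groups were not counted among spliced loci, so whether grouping on 1 strand is particular to single-exon ORFs was not tested. Close neighbors on 1 strand were also common among spliced loci outside other spliced loci. Of these, 44.5% had a gap of at most 5000 bp to the nearest spliced locus, and 62.7% of those 4625 were on its strand. At a gap of at most 1000 bp, 74.0% of 1025 were on its strand.

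The largest group lay on scaffold 46 between 2175838 and 2182749 and held 4 loci on the plus strand with gaps of 159 to 375 bp. CUFF123.250 (2175838 to 2176854) had 1017 bp and a coverage of 3.65, CUFF123.251 (2177230 to 2178021) had 792 bp and 5.26, CUFF123.252 (2178181 to 2178792) had 612 bp and 4.70, and CUFF123.253 (2178985 to 2182749) had 3765 bp and 7.71. All 4 coverages lay between 3.65 and 7.71, while the nearest spliced locus was 24120 bp or more away, on the other strand, with a coverage of 70.5. Of the 12 groups of 3 loci, those with the largest summed CDS lay on scaffolds 3 and 29. On scaffold 3, CUFF85.840 (11347229 to 11349379), CUFF85.841 (11350580 to 11351560) and CUFF85.842 (11351654 to 11352442) followed each other on the minus strand with gaps of 93 to 1200 bp and coverages of 3.25, 2.02 and 3.19. On scaffold 29 the 3 loci were farther apart, by 7908 to 9068 bp, also all on the minus strand. They were CUFF80.331 (3209809 to 3211659), CUFF80.332 (3220728 to 3221558) and CUFF80.334 (3229467 to 3230696), with ORFs of 1851, 831 and 1230 bp and coverages of 34.2, 12.7 and 27.6.

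Neighboring single-exon ORFs at short gaps had like coverage, as did single-exon and spliced neighbors. Of 26 consecutive pairs on the same strand with a gap of at most 1 kb, 22 (84.6%, interval 65.1% to 95.6%) were within 2-fold of each other. At 1 to 10 kb this was 16 of 31 (51.6%, 33.1% to 69.8%). Fewer pairs were on opposite strands, with 2 within 1 kb and 11 at 1 to 10 kb. Of these, 2 of 2 and 4 of 11 (36.4%, 10.9% to 69.2%) were within 2-fold. Overlaps between single-exon ORF loci were all on the same strand, with 72 loci overlapping another of the set, 46 of them those with identical coordinates. Overlaps with single-exon loci outside the set were mostly on opposite strands, with 29 loci there and 8 on the same strand. The library protocol in the labels does not mark strand, so the strand of a single-exon locus rests on its ORF or on spliced reads outside it.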

How the data were processed

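Poly(A) RNA libraries of ovary, ovotestis and testis (1 each) were sequenced by the authors, who mapped reads to their own scaffolds, assembled transcripts and trimmed each to an ORF chosen with a hidden Markov model. Bowtie 0.12.7, TopHat 1.3.3 and Cufflinks 1.1.0 are listed in the submitters' processing notes, while the paper names a later version of Cufflinks, and which one made the models was not settled. The deposited annotation gives coordinates of coding segments, exon numbers, an FPKM and a coverage per transcript. The number of reads in each library, and whether they were pooled before assembly, is not given in the sources used here. Coverage is the only measure of depth. The ratio of FPKM to coverage differed between the 171 groups of identifiers (medians 2.13 to 814), so coverage was the main measure.

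Positions are 1-based. Loci, gaps, groups and intervals were computed with Python 3.11.15, numpy 2.4.6, pandas 2.3.3 and scipy 1.17.1. Figures were drawn with matplotlib 3.10.9. Coverage was compared as log2(coverage + 2) in 5 classes of CDS length. The counting steps were tested on simulated data. A group is 2 or more loci at most 10 kb apart. No test was made, since loci are not replicates. Members and lists were chosen with earlier results of these data known. Exon numbers were read as set before the trimming, which the sources do not state. Loci named are the 10 longest, the 5 highest and 5 lowest in coverage, the 3 largest groups (ties by summed CDS), the 5 farthest from a spliced locus among those with one on both sides, the 3 longest alone on a scaffold and 3 on each side of the minimum length (ties by identifier), plus examples stated as looked up. Identifiers were sorted as text. Of the lengths shared by 5 or more loci, only the commonest and the longest are given. Alternatives changed the CDS minimum, transcripts counted, pseudocount, scaffolds, gaps and coverage minimum.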

Additional observations from a re-analysis of the deposited data

How the results depend on the processing

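Of 37 alternatives to 7 results, 23 were planned and 14 were chosen after seeing the data. A change of sign was possible only for the log2 difference in coverage, and none was found. Counts, gaps and shares cannot change sign, and their alternatives were not each set beside spliced loci. In 28 alternatives the value stayed within 1.5 times or within its interval. With a CDS minimum of 900 bp the loci numbered 643 and the groups 40, the share on scaffolds without a spliced locus was 7.47%, and that of plus-strand loci with a trimmed 5′ exon was 25.8%. Summed coverage gave a log2 difference of -3.22 from spliced loci of equal length. Over the other 10 alternatives that difference lay between -2.81 (pseudocount 0.1) and -2.04 (loci with a trimmed exon only). Neighbors of at least 300 bp CDS gave a median gap of 5305 bp, above the 4930 bp of spliced loci. With any locus as neighbor it was 1578 bp, slightly below their 1604 bp. Counting strand up to 20 kb gave 57.0% on the strand of the spliced neighbor. Leaving out scaffolds with 1 locus brought the share without a spliced locus to 4.43%. Loci with 1 transcript gave 14.8% with a trimmed 5′ exon. The cause of these changes was not tested. Counting each place once left 1292 loci and 73 groups and moved no value beyond these limits. No paired analysis was possible because each gonad had 1 library and no value is given per library. Coverage was under 5 at 352 loci.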

Other observations

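The 186 single-exon loci of at least 600 bp inside a spliced locus, which the report leaves out, had a median coverage of 15.3 (quartiles 5.44 and 50.9) and a median CDS of 854 bp. A trimmed 5′ exon was found at 3 of 87 on the plus strand (3.45%, exact 95% interval 0.717% to 9.75%), and a trimmed 3′ exon at 0 of 99 on the minus strand (upper limit 3.66%).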
